A study of Mus musculus with 13 samples.

Results

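The Zfp genes described here are mouse genes whose symbol is Zfp followed by a number alone, names given to zinc finger proteins. They were chosen by that symbol, by presence in all 3 comparison tables and by a mean normalized count of at least 100. Of 302 such symbols in all 3 tables, 230 passed, out of 13482 genes. The 10961 other genes with a mean normalized count between 100 and 11636 serve as the background. Cortical RNA of 13 males was sequenced at an age of 18 months. The Grn-/-;GRNtg group held 4 mice labelled Grn-/- for the mouse gene that carry a human GRN transgene, which the labels describe as humanized and progranulin deficient, and which are called humanized mice here. The sources used here do not give the promoter, copy number or insertion site of that transgene. The Grn+/- group held 4 mice with 1 copy of mouse Grn, and the WT group held 5 Grn+/+ mice. Both mutant groups were set against the same WT mice, so their fold changes share the WT values. The comparisons ask what partial loss of progranulin, in its mouse or its human form, does to the ageing cortical transcriptome. Only the authors' comparison tables were used, with no values per mouse, so each gene has a mean over all mice and a fold change with its standard error (SE). Nothing says that mice came from separate litters, so p-values measure the spread between these 13 samples as the authors' model gives it.

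Most Zfp genes encode proteins of the C2H2 kind, in which a pair of cysteines and a pair of histidines hold a zinc ion and fold a short stretch into a finger. Fingers stand in tandem, joined by a conserved linker, and each reads a few bases of DNA, or in some proteins RNA. Many also carry a KRAB domain, which binds the corepressor Trim28 (KAP1) and so brings the histone methyltransferase Setdb1 to its targets, many of them transposable elements. KRAB zinc finger genes multiplied by tandem duplication and lie in clusters. In the brain, single members are known for roles in imprinting, neurogenesis, myelination and RNA control.

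The repeated unit is shown for 2 genes that turn up in both mutant groups, Zfp329, which fell, and Zfp46, which rose. The first matching units of each coding sequence run 5′ to 3′ from the first cysteine codon of a finger to the base before the next finger. Each holds 84 bases, and the codons of the zinc-binding cysteines and histidines are in capitals. They were read from GENCODE M21 transcripts.

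Zfp329 finger 1: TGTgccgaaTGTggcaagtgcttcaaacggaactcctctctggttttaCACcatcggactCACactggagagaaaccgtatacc
Zfp329 finger 2: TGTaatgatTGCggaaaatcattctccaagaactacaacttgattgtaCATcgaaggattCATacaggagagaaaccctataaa
Zfp329 finger 3: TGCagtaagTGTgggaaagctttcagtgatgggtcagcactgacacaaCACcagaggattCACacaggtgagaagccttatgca
Zfp46 finger 1: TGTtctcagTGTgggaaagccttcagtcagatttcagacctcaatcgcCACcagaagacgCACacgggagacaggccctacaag
Zfp46 finger 2: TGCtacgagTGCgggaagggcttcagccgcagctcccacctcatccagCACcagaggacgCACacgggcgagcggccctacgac

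These units were identical at 56.0% to 71.4% of their 84 bases, and the closest pair was the first and second finger of Zfp46. Likeness closer than this can bear on read assignment, so the share of each gene's 50-base words that also occur in another gene was computed from the annotation. The median share was 0.0839%, 105 of 230 genes shared none, and 186 shared under 2%. Above 10% stood 12 genes, led by Zfp617 with 41.5%. How the authors treated reads with several matches is not known from the sources used here. Counts of those 12 genes are therefore uncertain.

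Expression of the set was low to moderate. Mean normalized counts, averaged by the authors over all mice, had a median of 318 in the authors' deposited tables, with quartiles of 195 and 589. Only 25 genes reached 1000, while 62 stayed under 200. Together the 230 genes held 125747 of 18113972 mean normalized counts, or 0.694%. Zfp365, which binds the neurodevelopmental protein Disc1, led with 11636 in the authors' deposited tables. It was followed by Zfp106, an RNA-binding protein needed for motor neuron upkeep in mice, with 5645, and by Zfp445, which guards imprinted loci, with 3363. Zfp651, also named Zbtb47, had 2875, and the small protein Zfp706 had 2799. Divided by exonic length, levels had a median of 78.6 per kb and ran between 9.17 and 2732 per kb. Zfp365 led on this scale too, with 2732 per kb, ahead of Zfp523 with 922 per kb. Genes just above the minimum were Zfp101 (102), Zfp11 (101) and Zfp36 (100.9), and genes just below it were Zfp202 (98.9), Zfp113 (97.7) and Zfp438 (97.7), all mean normalized counts in the authors' deposited tables.

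**Figure D1:**
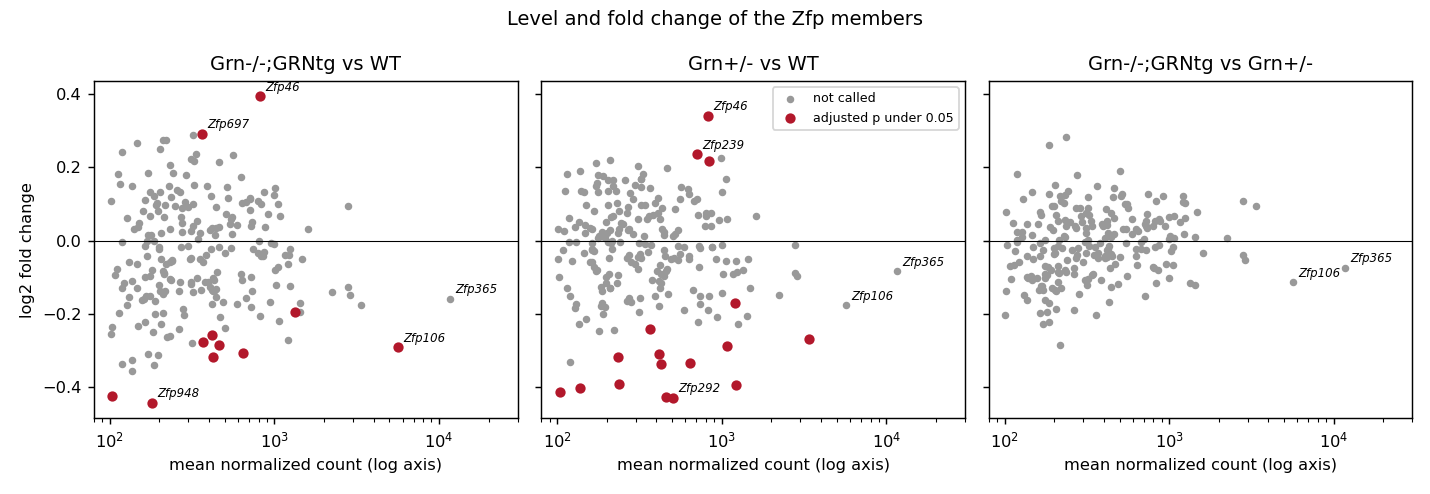
Log2 fold change (vertical axis) against mean normalized count (horizontal axis, log scale) of the 230 Zfp genes in each comparison, from the authors' deposited tables. Red points have an adjusted p under 0.05: 11 genes in Grn-/-;GRNtg against WT, 17 in Grn+/- against WT and none in the direct comparison. Zfp365, the most abundant gene at 11636, is not among them.

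The targeted gene was lower in both mutant groups, in the order of the labels, but signal assigned to it was not absent where the labels give Grn-/-. Mouse Grn stood at 24.7% of WT in humanized cortex, and the authors' deposited table gives -2.02 ± 0.081 (SE) on the log2 scale and an adjusted p of 5.8e-131. In Grn+/- cortex it stood at 63.6% of WT, for which the authors' deposited table gives -0.65 ± 0.077 and an adjusted p of 2.9e-13. The sources used here do not state whether the authors shrank fold changes towards 0. However, SEs levelled off at 0.138, even at a mean normalized count of 40.9, as such shrinkage gives. Both percentages of WT are thus likely too high. Depth per mouse is unknown. All 7 listed markers of cortical excitatory neurons were measured, with mean normalized counts of 533 to 36091. Reads assigned to no gene made up 17.0% of all mean normalized counts and were lower in both mutant groups, by a log2 fold change of -0.18 ± 0.052 in humanized cortex and -0.22 ± 0.052 in Grn+/- cortex (adjusted p = 0.0241 and 0.00193 in the authors' deposited tables).

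In humanized cortex against WT, 11 of the 230 Zfp genes changed at an adjusted p under 0.05 (DESeq2 Wald test with Benjamini-Hochberg adjustment over the whole table), or 4.78%. Of other genes of the same range 5.57% changed, and 4.87% of all genes did. A share of 4.78% is thus near the background and is no result about the set. Of the 11, 9 fell and 2 rose, against 397 that fell (3.62%) and 214 that rose (1.95%) among other genes. At an unadjusted p under 0.05 stood 56 Zfp genes, or 24.3%, beside 22.8% of the other genes. Zfp948, a KRAB zinc finger gene, fell furthest, to 73.5% of WT in the authors' deposited table. Zfp800 fell to 74.4% and Zfp397 to 80.1%, while Zfp46 rose to 131% of WT.

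In the authors' deposited table, Zfp948 (mean normalized count 180) had -0.44 ± 0.099 on the log2 scale and adjusted p = 0.00116. Zfp106 (5645) fell by 0.29 ± 0.074 on the log2 scale, with adjusted p = 0.0059. It is the second most abundant of the 230 genes, and it binds the GGGGCC repeat RNA that expansions in a frontotemporal dementia gene give rise to. Lower calls also went to Zfp397 (-0.32 ± 0.090, adjusted p = 0.0167), Zfp950 (-0.31 ± 0.086, 0.017), Zfp715 (-0.28 ± 0.080, 0.0197) and Zfp800 (-0.43 ± 0.129, 0.0285), as log2 fold changes in the authors' deposited table. The remaining lower calls were Zfp329 (-0.29 ± 0.091, adjusted p = 0.0415), Zfp266 (-0.26 ± 0.084, 0.0466) and Zfp180 (-0.20 ± 0.064, 0.0496) in the same deposited table of the authors. Zfp180 thus lies just under the threshold of 0.05. The 2 genes that rose were Zfp46 (818), by 0.39 ± 0.111 with adjusted p = 0.017, and Zfp697 (363), by 0.29 ± 0.093 with adjusted p = 0.0406. Zfp697 is described in mouse skeletal muscle.

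In Grn+/- cortex against WT, 17 of the 230 genes changed, or 7.39%, beside 7.49% of other genes of the same range and 6.8% of all genes in the table. This share too is at the background. Lower calls numbered 14 and higher calls 3, against 547 lower (4.99%) and 274 higher (2.5%) among other genes. At an unadjusted p under 0.05 stood 38 Zfp genes, or 16.5%, and 21.7% of the other genes. Zfp292 and Zfp329 fell furthest, each to about 74% of WT in the authors' deposited table. Zfp46, Zfp239 and Zfp777 rose, to 127%, 118% and 116% of WT.

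Zfp292, whose human counterpart is mutated in intellectual disability, had a mean normalized count of 503 and, by the authors' deposited table, a log2 fold change of -0.43 ± 0.090 (adjusted p = 0.00025). Zfp329 (459) had -0.43 ± 0.091 and adjusted p = 0.000375. Zfp704 (1212) fell by 0.39 ± 0.091 on the log2 scale, with adjusted p = 0.00124. Zfp445 acts with Zfp57 to keep DNA methylation at imprinting control regions. By the authors' deposited table it fell by 0.27 ± 0.076 (adjusted p = 0.0122). Zfp335, whose human counterpart is mutated in a form of microcephaly, fell by 0.17 ± 0.054, with adjusted p = 0.032. That is the smallest of the 17 changes, at 88.8% of WT and a mean normalized count of 1208.

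The other lower calls in Grn+/- cortex had log2 fold changes between -0.41 and -0.24. Zfp398 had -0.39 ± 0.099 (adjusted p = 0.00395), Zfp950 -0.33 ± 0.086 (0.00545), Zfp397 -0.34 ± 0.090 (0.00711) and Zfp266 -0.31 ± 0.084 (0.00914) in the authors' deposited table. Zfp397 carries a SCAN domain, and its human counterpart has been seen at centromeres. Zfp236, Zfp933, Zfp169, Zfp800 and Zfp715 had adjusted p-values of 0.0173 to 0.0394 there. The first 3 of these, and Zfp180, were named after their values were seen. Zfp239, also known as Mok-2 and able to bind both DNA and RNA, rose by 0.24 ± 0.072, with adjusted p = 0.0238. Zfp777 rose by 0.22 ± 0.066 and Zfp46 by 0.34 ± 0.111 on the log2 scale, with adjusted p = 0.0228 and 0.0375 in the authors' deposited table.

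**Figure D2:**
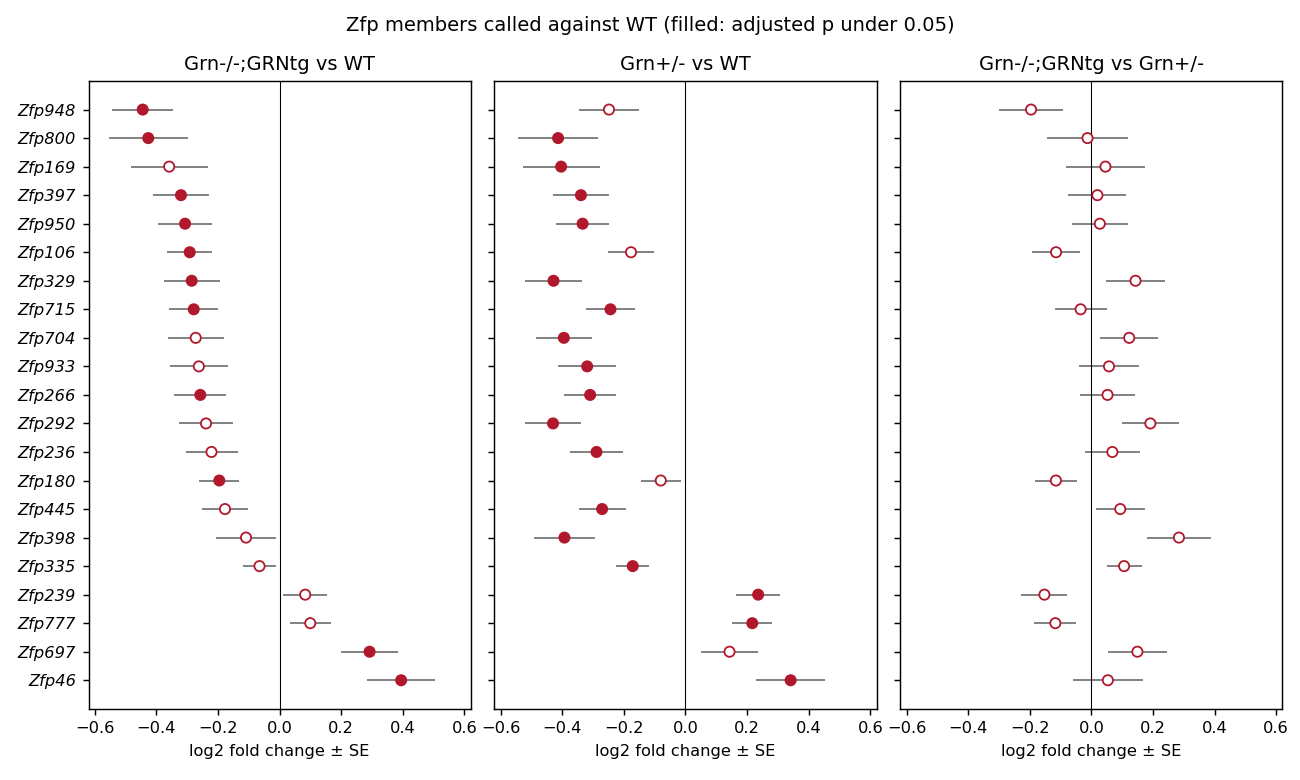
Log2 fold change with its SE (horizontal bars) of the 21 Zfp genes called in at least 1 comparison against WT, from the authors' deposited tables, one panel per comparison. Filled points have an adjusted p under 0.05. Of the 21 genes, 17 lie left of 0 in both comparisons against WT, and no point is filled in Grn-/-;GRNtg against Grn+/-.

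Called in both mutant groups were 7 genes, which are 63.6% of the 11 and 41.2% of the 17. Among other genes of the same range 257 were called in both, which are 42.1% of 611 and 31.3% of 821. Zfp397, Zfp950, Zfp715, Zfp800, Zfp329 and Zfp266 fell in both, and Zfp46 rose in both. Since both comparisons use the same 5 WT mice, these overlaps are a description with no test. Side by side, humanized and Grn+/- cortex stood at 80.9% and 79.3% of WT for Zfp950 in the authors' deposited tables. For Zfp397 they stood at 80.1% and 79.0%, and for Zfp800 at 74.4% and 75.1% of WT. Zfp329 stood at 82.1% in humanized and 74.3% in Grn+/- cortex, and Zfp46 at 131% and 127%.

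The direct comparison, humanized against Grn+/- cortex, tests whether the mutant groups differ. Of the 230 Zfp genes, 0 were called (0.0%), beside 0.356% of other genes of the same range and 0.467% of all genes, by the authors' DESeq2 test. At an unadjusted p under 0.05 stood 6 Zfp genes, or 2.61%, beside 10.1% of other genes. The lowest p was that of Zfp719, named after its values were seen, with a log2 fold change of -0.29 ± 0.096 by the authors' deposited table (p = 0.00294, adjusted p = 0.193). Zfp398 was called in Grn+/- cortex alone and stood highest in this comparison, at 0.28 ± 0.103 with adjusted p = 0.255. The 95% interval of Zfp398 lay above 0. Zfp292 had 0.19 ± 0.094 (adjusted p = 0.523), with a 95% interval of 0.01 to 0.38 on the log2 scale. For Zfp948, called in humanized cortex alone, the difference was -0.20 ± 0.103 (adjusted p = 0.574), with an interval of -0.40 to 0.01. Zfp106 had -0.12 ± 0.077 (adjusted p = 0.721), with an interval of -0.27 to 0.04. No gene called in 1 mutant group alone thus differed between the mutant groups at an adjusted p under 0.05. For the genes called in both, intervals of the difference were -0.15 to 0.21 for Zfp950, -0.17 to 0.20 for Zfp397 and -0.17 to 0.28 for Zfp46, computed from the authors' deposited SEs.

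Across all 230 genes the middle of the distribution lay slightly below 0. In humanized cortex against WT the median log2 fold change was -0.041, and 137 genes, or 59.6%, were negative. Other genes of the same range had a median of 0.0051 with 48.7% negative. In Grn+/- cortex against WT the Zfp median was -0.017 with 130 genes, or 56.5%, negative, beside 0.0089 and 47.4% for the other genes. Medians in the direct comparison were -0.013 for Zfp genes and 0.00024 for the others. No test was made of these medians. The SD of Zfp fold changes was 0.152 in humanized and 0.140 in Grn+/- cortex, beside 0.155 and 0.147 for the other genes. Below -0.2 stood 31 of 230 Zfp genes in humanized and 23 in Grn+/- cortex, beside 1100 and 1066 of 10961 other genes.

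**Figure D3:**
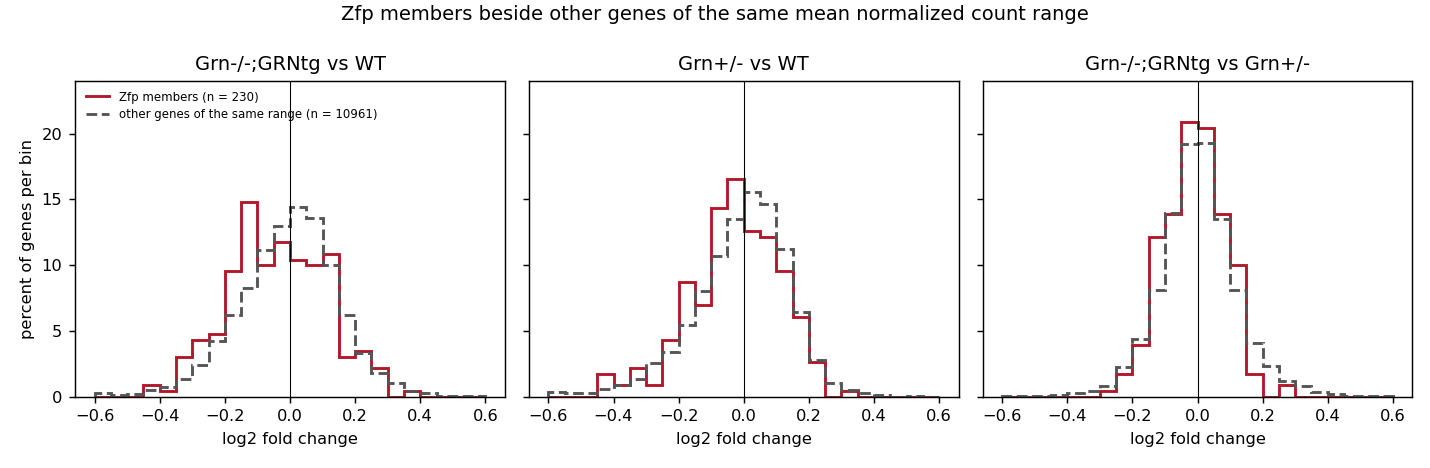
Distribution of log2 fold changes (horizontal axis, bins of equal width) as the percent of genes per bin, for the 230 Zfp genes (solid red) and 10961 other genes of the same mean normalized count range (dashed grey), from the authors' deposited tables. The curves overlap over most of their range, with Zfp medians of -0.041, -0.017 and -0.013 from the left panel to the right.

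These calls have 1 main limit. The Wald statistics of all genes were wider than the standard normal, with a robust spread of 1.56 in humanized and 1.49 in Grn+/- cortex against WT. Divided by that spread, 0 of the 11 and 0 of the 17 calls remained, and 3 and 6 calls over all genes.

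A list of 30 members with described roles, which does not hold every member with a known role (Zfp445, Zfp397 and Zfp239 are not on it), was counted apart. Of these 30, 1 fell in humanized cortex (Zfp106), beside 5.57% of other genes called in either direction, and 3 fell in Grn+/- cortex (Zfp292, Zfp704 and Zfp335), beside 7.49%. None of the 30 was called higher, and none was called in the direct comparison. Negative log2 fold changes were found for 24 of 30 in humanized and 28 of 30 in Grn+/- cortex, with medians of -0.12 and -0.11, beside 48.7% and 47.4% negative among other genes. Their median gene span was 30.6 kb, against 16.5 kb for all 230 genes. The part of span in this count was not tested.

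Zfp57, Zfp809, Zfp932 and Zfp638, which act in imprinting or the silencing of retroviruses, were not called. Zfp57, which binds methylated imprinting control regions, had a mean normalized count of 205 and log2 fold changes of -0.23 ± 0.118 in humanized and -0.09 ± 0.117 in Grn+/- cortex (adjusted p = 0.246 and 0.724 in the authors' deposited tables). Zfp809, which silences retroviruses in mouse embryonic stem cells, had -0.18 ± 0.112 and -0.19 ± 0.112. Zfp932, which silences endogenous retroviruses, had 0.05 ± 0.098 and -0.04 ± 0.098, but shares 37.0% of its 50-base words, most with Gm15446. Zfp638, a silencer of unintegrated retroviral DNA, had -0.12 ± 0.082 and -0.23 ± 0.082, with adjusted p = 0.392 and 0.0687 in the authors' deposited tables.

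Zfp592, Zfp687 and Zfp532 form a complex with the chromatin reader Zmynd8. Zfp592 came closest to a call, with log2 fold changes of -0.21 ± 0.068 in humanized and -0.19 ± 0.068 in Grn+/- cortex (adjusted p = 0.0505 and 0.0685 in the authors' deposited tables). Zfp687 had 0.11 ± 0.069 and 0.07 ± 0.069, the other sign. Zfp532 had -0.04 ± 0.061 and -0.06 ± 0.061. The subunits thus showed no common direction beyond their SEs.

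Among neural factors, Zfp365 had log2 fold changes of -0.16 ± 0.057 in humanized and -0.08 ± 0.057 in Grn+/- cortex (adjusted p = 0.0729 and 0.417 in the authors' deposited tables). Zfp191, the annotation's Zfp24, is needed for oligodendrocyte maturation and had -0.13 ± 0.073 and -0.10 ± 0.073. Listed myelin genes had negative medians too, -0.22 in humanized and -0.14 in Grn+/- cortex, with 0 of 6 called in either. Zfp521, which drives neural conversion of embryonic stem cells, had -0.25 ± 0.108 and -0.18 ± 0.107. Zfp536, a repressor of neuronal differentiation, had -0.12 ± 0.108 and -0.19 ± 0.108 in the authors' deposited tables. Zfp462, a chromatin regulator of neural development, had -0.02 ± 0.099 and -0.15 ± 0.099, and Zfp423, needed for cerebellar development, 0.04 ± 0.117 and -0.05 ± 0.117. Zfp110, which binds the neurotrophin receptor p75, had -0.14 ± 0.106 and -0.05 ± 0.106. Zfp189, a gene of stress resilience in mouse prefrontal cortex, had -0.20 ± 0.132 and -0.13 ± 0.132. None of these passed the test.

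Nor were Zfp36, Zfp207, Zfp91, Zfp326, Zfp143 and Zfp703 called, which act on RNA, protein turnover, the spindle or promoters. Zfp36 (tristetraprolin), which destabilizes AU-rich mRNAs and is an immediate early gene, had log2 fold changes of -0.26 ± 0.135 in humanized and -0.05 ± 0.135 in Grn+/- cortex, at the lowest mean normalized count of the set (100.9) in the authors' deposited tables. Among 12 other listed immediate early genes, 10 were called lower in humanized and 3 in Grn+/- cortex, beside 4.87% and 6.8% of all genes called. Negative values were found for 12 and 11 of the 12. In humanized against Grn+/- cortex Ier2 and Dusp1 were called lower, beside 0.467% of all genes called. Zfp207, a spindle assembly factor, had -0.05 ± 0.067 and -0.13 ± 0.067. Zfp91, a ubiquitin ligase, had -0.17 ± 0.078 and -0.05 ± 0.078. The splicing-linked Zfp326 had 0.04 ± 0.072 and -0.08 ± 0.073. Promoter-binding Zfp143 had 0.02 ± 0.106 and -0.05 ± 0.106, and the corepressor Zfp703 0.12 ± 0.088 and 0.23 ± 0.088 (adjusted p = 0.433 and 0.097) in the authors' deposited tables. Zfp148, Zfp281, Zfp384, Zfp219 and Zfp516, all transcription factors, had negative values in both groups, between -0.19 and -0.02.

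Protein features were read from translated GENCODE M21 coding sequences, which 229 of the 230 genes had. A finger was counted for each match to 2 cysteines spaced by 2 to 4 residues and 2 histidines spaced by 3 to 5, with 12 residues between. The 229 proteins held 2341 fingers, with a median of 10 and a maximum of 36, in Zfp142. Zfp36, Zfp330, Zfp365, Zfp503, Zfp703 and Zfp839 had no such finger, and Zfp36 alone matched the CCCH pattern. The called genes ranged widely, from 1 finger in Zfp704 to 30 in Zfp236, with a median of 12. By class, 42 proteins had 0 to 4 fingers, 65 had 5 to 9, 80 had 10 to 14 and 42 had 15 or more. Median log2 fold changes ran in that order 0.040, -0.041, -0.045 and -0.075 in humanized cortex, and 0.027, -0.018, 0.0029 and -0.048 in Grn+/- cortex. Of the 42 proteins with 15 or more fingers, 28 were negative in humanized and 31 in Grn+/- cortex. In every class and both of these comparisons the quartiles lay on either side of 0, so the classes overlapped.

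The KRAB pattern was found in 84 proteins, 36.7% of those translated, and it misses some KRAB proteins, so the rest are not shown to lack the domain. Their median log2 fold change was -0.060 in humanized and -0.017 in Grn+/- cortex, beside -0.033 and -0.017 for the 145 without it. Calls went to 3 KRAB genes (3.57%) in humanized and 7 (8.33%) in Grn+/- cortex, beside 8 (5.52%) and 10 (6.9%) of those without. Of other genes of the same range 5.57% and 7.49% were called. Of the 21 called genes 8, or 38.1%, had the pattern, close to the share in the set. A looser pattern, which allows a leucine at its end and was added after the data were seen, found 90, and the 6 more lie in the 13-member cluster of chromosome 7, where the stricter one found 0. In the direct comparison it moved the KRAB median to -0.037 against -0.024 with the stricter pattern. SCAN matched 5 proteins, Zfp445, Zfp397, Zfp287, Zfp446 and Zfp174. Of these, Zfp397 fell in humanized cortex, and Zfp445 and Zfp397 fell in Grn+/- cortex, beside the same 5.57% and 7.49% of other genes called.

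**Figure D4:**
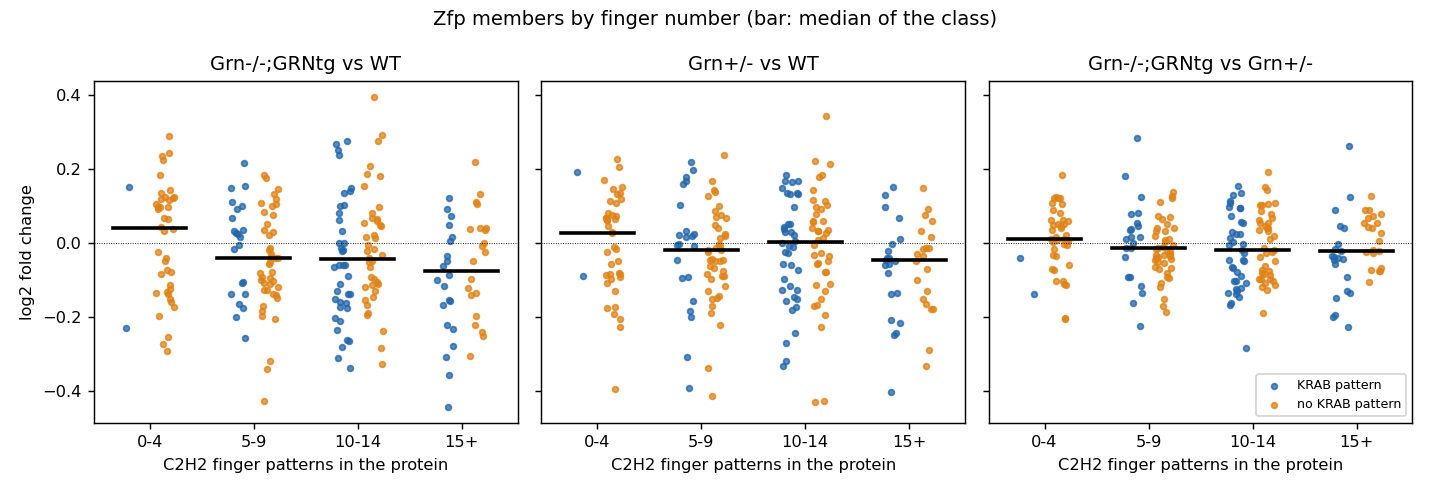
Log2 fold change of each Zfp gene (vertical axis) by the number of C2H2 finger patterns in its protein (horizontal axis, 4 classes), from the authors' deposited tables, with KRAB proteins in blue and others in orange, and a black bar at the class median. Points of all classes spread to both sides of 0, and the class with 15 or more fingers has medians of -0.075 and -0.048 in the comparisons against WT.

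By position, 64 of the 230 genes lay on chromosome 7 and 24 on chromosome 17 (GENCODE M21, GRCm38). Counting as a cluster at least 3 members with neighbouring starts under 500 kb apart, 18 clusters held 105 genes. Members in clusters had medians of -0.044 in humanized and -0.0047 in Grn+/- cortex, beside -0.040 in both groups for members outside. The 21 called genes were scattered over 10 chromosomes, and 8 lay in clusters. The largest cluster, with 13 members on chromosome 7 from 24081924 to 25227507, held 1 call, Zfp180 in humanized cortex. None of these 13 members was called in Grn+/- cortex. Log2 fold changes there ran from -0.23 in Zfp109 to 0.18 in Zfp94 and Zfp108, by the authors' deposited tables. A chromosome 6 cluster of 9 members, from 47835661 to 48623227, held Zfp398, which fell, and Zfp777, which rose, in Grn+/- cortex. The other 7 were not called, and 8 of the 9 were positive, with a median of 0.085. In the 12-member cluster on chromosome 7 from 29768552 to 30169750, 11 members were negative in humanized against Grn+/- cortex, with a median of -0.090 and none called. Zfp266 (chromosome 9, 20495068 to 20521417, minus strand) stood in a 4-member cluster with a median of -0.15 in Grn+/- cortex.

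Promoter windows, 250 bases before to 50 after a gene's start in RefSeq on GRCm38.p6, matched 188 of the 230 genes with 230 windows. They held a median of 17 CG pairs, beside 7 over all 32851 windows, with a GC content of 57.7% beside 52.7%. Zfp266 and Zfp329, which fell in both mutant groups, are shown on the strand of the gene. Capitals mark matches to any of 6 motifs searched on both strands.

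Zfp266 promoter, chr9:20521370-20521669, minus strand: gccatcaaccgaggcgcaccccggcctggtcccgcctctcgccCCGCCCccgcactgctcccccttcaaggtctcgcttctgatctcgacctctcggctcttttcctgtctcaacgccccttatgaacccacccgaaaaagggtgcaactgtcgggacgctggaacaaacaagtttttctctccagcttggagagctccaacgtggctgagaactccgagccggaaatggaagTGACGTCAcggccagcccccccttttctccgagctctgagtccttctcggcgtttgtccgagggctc
Zfp329 promoter, chr7:12818811-12819110, minus strand: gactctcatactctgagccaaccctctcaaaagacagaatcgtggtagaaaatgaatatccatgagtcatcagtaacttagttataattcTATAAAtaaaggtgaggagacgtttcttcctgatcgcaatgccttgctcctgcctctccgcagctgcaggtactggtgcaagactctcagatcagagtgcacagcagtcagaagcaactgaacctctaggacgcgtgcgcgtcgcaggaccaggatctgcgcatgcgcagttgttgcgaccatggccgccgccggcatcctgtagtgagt

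In the Zfp266 window the capitals are a GGGCGG match on the opposite strand and the palindrome TGACGTCA, the full cyclic AMP response element. In the Zfp329 window they are a TATAAA match. GGGCGG was found in 47.4% of the 230 Zfp windows and 35.7% of all windows, and CCGGAAG, an ETS motif, in 17.8% and 8.86%. CCAAT stood at 43.5% and 37.4%, TGACGTCA at 2.61% and 1.79%, and TATAAA at 7.39% and 13.6%. ACTACAA, part of the site that Zfp143 binds, was found in 6.96% of Zfp windows and 3.24% of all windows. Windows were had for 18 of the 21 called genes, 22 in all. Among them ACTACAA stood in 5 windows (22.7%) of 4 genes (Zfp169, Zfp180, Zfp697 and Zfp933), TATAAA in 4 (18.2%) and TGACGTCA in 2 (9.09%). CCAAT stood in 5 (22.7%), GGGCGG in 8 (36.4%) and CCGGAAG in 1 (4.55%). None of the 6 motifs contains another, and these matches are a description of letters in the windows.

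Gene span moved with fold change in the set and in the background. Span quartiles of the 230 genes were bounded at 1.59, 10.8, 16.5, 28.6 and 462 kb. In Grn+/- cortex against WT the Zfp medians over rising quartiles were 0.017, -0.0052, -0.0091 and -0.070, beside 0.050, 0.025, 0.019 and -0.027 for other genes in the same span bins. In humanized cortex they were -0.00039, -0.033, -0.060 and -0.053, beside 0.040, 0.019, 0.0051 and -0.023. In the direct comparison the longest quartile had a Zfp median of 0.036, beside 0.013 for the others. Zfp genes are shorter than the rest, with a median span of 16.5 kb against 27.4 kb. In all 8 bins of the comparisons against WT the Zfp median was below that of other genes. Removing the span trend of all genes left medians of -0.040 in humanized and -0.022 in Grn+/- cortex.

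**Figure D5:**
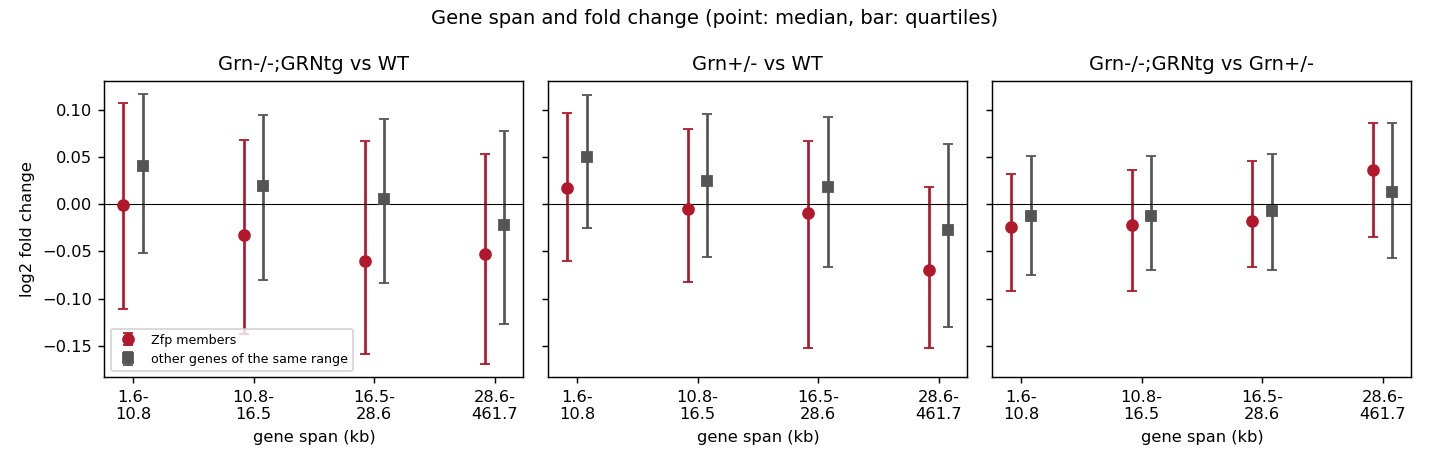
Median log2 fold change (points) with quartiles (bars) by gene span in kb (4 bins set by the quartiles of the Zfp genes) for Zfp genes (red circles) and other genes of the same mean normalized count range (grey squares), from the authors' deposited tables. In Grn+/- against WT the median of Zfp genes is 0.017 in the shortest bin and -0.070 in the longest, and other genes lie at 0.050 and -0.027.

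By level, the least abundant quartile of Zfp genes (mean normalized counts of 101 to 195) had a median of -0.089 in humanized cortex, beside -0.0091 for other genes of those counts. In Grn+/- cortex the lowest median, -0.053, was that of the most abundant quartile, beside 0.012 for other genes. Over rising quartiles, calls in humanized cortex went to 2, 0, 5 and 4 Zfp genes, beside 4.52%, 5.3%, 4.79% and 6.19% of other genes. Calls in Grn+/- cortex went to 2, 2, 5 and 8 Zfp genes of 58, 57, 57 and 58, beside 4.59%, 5.71%, 7.33% and 8.71% of other genes.

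Reads of overlapping genes add a further uncertainty, since the sources used here do not give the strand setting of the counting. Another gene overlapped 106 of the 230 genes and 12 of the 21 called. Zfp106 shared 24.6% of its 50-base words with antisense transcripts, Zfp335 19.2% and Zfp704 16.5%. Zfp335 overlaps Pcif1 and its own antisense transcript, and Zfp950 overlaps Grk5. Zfp697 overlaps several genes of the Hsd3b family and shared 10.5% of its words, most with Gja5. On the strand of the gene, no other called gene shared over 1.42% of its words with another. Without any overlap in the annotation, 6 calls were left in humanized and 7 in Grn+/- cortex, among 124 such members. Zfp329, Zfp397, Zfp715 and Zfp46 are among them. No share of other genes without overlap was counted, so these counts are no result about the set.

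Other zinc finger families were counted the same way, beside calls for 4.87% of all genes in the humanized and 6.8% in the Grn+/- comparison. These counts of few genes were not tested against those shares. Of 35 Zbtb genes, which join fingers to a BTB domain, 3 fell in humanized cortex, and 3 fell and 1 rose in Grn+/- cortex. Zbtb40 stood at 74.9% and 74.6% of WT, and Zbtb41 at 79.9% and 73.3%, in the authors' deposited tables. Of 9 Zkscan genes, Zkscan8 and Zkscan3 fell in Grn+/- cortex and none changed in humanized cortex. Of 18 Zfp genes whose symbol ends in letters, Zfp36l1, Zfp36l2 and Zfp280c fell in Grn+/- cortex, to 78.6%, 80.2% and 79.8% of WT, and none in humanized cortex. Zfp36l1 and Zfp36l2 are relatives of tristetraprolin. The 9 Zscan genes and the 11 Zmym, Zmiz and Zmynd genes had no call. Of 20 Zdhhc genes, palmitoyltransferases, Zdhhc8 and Zdhhc24 rose in Grn+/- cortex and none changed in humanized cortex. Zc3h11a, of 13 Zc3h genes, fell in both groups, and Zc3h6 rose in Grn+/- cortex. Of 9 Zfhx, Zic, Gli and Ikzf genes, Zfhx4 fell in humanized cortex, and Zfhx2, Gli3 and Ikzf5 fell in Grn+/- cortex. Called genes of these families were named after their values were seen. The Zbtb median log2 fold change was -0.067 in humanized and -0.057 in Grn+/- cortex, beside 0.0050 and 0.0082 over all genes of the tables. In the direct comparison none of these families had a call.

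Of 24 measured partners of KRAB silencing, 1 fell in humanized and 3 in Grn+/- cortex. Beside them stand the same 5.57% and 7.49% of other genes of the Zfp range, and 4.87% and 6.8% of all genes. Fam208a, also named Tasor, the scaffold of the HUSH silencing complex, fell in both, with log2 fold changes of -0.25 ± 0.070 in humanized and -0.36 ± 0.071 in Grn+/- cortex (adjusted p = 0.0165 and 0.000104 in the authors' deposited tables). Atrx, a chromatin remodeller, and Smarcad1, a remodeller that binds Trim28, fell in Grn+/- cortex alone, by 0.29 ± 0.085 and 0.27 ± 0.087. Their direct difference between the mutant groups was not called (adjusted p = 0.764 and 0.441). Trim28 itself had 0.05 ± 0.037 and 0.04 ± 0.037, and Setdb1 -0.06 ± 0.074 and -0.05 ± 0.074. The corepressor and its methyltransferase thus did not pass the test in either group.

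Calls in marker lists are given beside the same shares of 4.87% and 6.8% over all genes. Of 10 nuclear-retained RNAs, 9 were negative in humanized and 10 in Grn+/- cortex, with medians of -0.14 and -0.22. Malat1 fell in both groups, and Rian, Mirg and Kcnq1ot1 fell in Grn+/- cortex. Of 5 endothelial markers 3 fell in humanized cortex, and of 6 astrocyte markers 2 fell in Grn+/- cortex, as did 2 of 5 markers of oligodendrocyte precursors. None of 5 striatal markers was called, though all 5 were positive in humanized cortex, with a median of 0.15. Of 7 excitatory neuron markers Rorb alone was called in Grn+/- cortex, higher by 0.37 ± 0.127 (adjusted p = 0.048 in the authors' deposited table). Of the same 7, 4 were negative there, with a median of -0.032. Of 4 measured leptomeningeal markers Mgp rose in humanized cortex, and so did Apoa2 of 2 measured liver markers. Inhibitory neuron, oligodendrocyte and microglia markers, 6 each, had no call against WT. All 6 inhibitory markers were positive in Grn+/- cortex (median 0.13), and 1 was negative in humanized cortex. All 6 oligodendrocyte and all 6 microglia markers were negative in both mutant groups. Microglia medians were -0.038 in humanized and -0.12 in Grn+/- cortex. In whole cortex, fewer cells of a type and less RNA per cell cannot be told apart. The part of these lists in the Zfp values was not tested.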

How the data were processed

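Cortical RNA from 4 Grn-/-;GRNtg, 4 Grn+/- and 5 WT male mice was compared in tables that the authors deposited, 1 for each pair of groups. Per the labels' protocols, total RNA went into directional libraries. The mm10 build, R 4.1.2 and DESeq2 1.34.0 are named in the submitters' processing notes, while the sources used here do not give the aligner, counter, annotation or strand setting. Mean normalized counts are a signal that the authors averaged over libraries, per the file headers. Also deposited by the authors are the log2 fold change, its SE, the Wald score and both the raw and the adjusted p-value. Each score equalled fold change divided by SE, and Benjamini-Hochberg adjustment over each table returned the adjusted values. Fold changes of the 3 tables added up, as values of a single fit do, and no SE exceeded 0.138. Such a ceiling at low counts is what shrinkage of fold changes towards 0 gives, though the sources used here do not state it. Fold changes of all genes then understate the change, most for genes of low count. Percentages of WT would then understate it too.

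Genes counted as called had an adjusted p under 0.05. No model could be refitted, and depth per mouse is unknown, so the SE is the only measure of precision. Intervals are the log2 fold change ± 1.96 SE. Python 3.11.15, pandas 2.3.3, numpy 2.4.6 and scipy 1.17.1 were used, and the adjustment was tested on simulated data. Positions are from GENCODE M21 on GRCm38, with 229 members matched by symbol and Zfp191 as Zfp24. No RefSeq protein table was used, so features came from the longest coding sequence of the basic GENCODE set, and Zfp783, a transcribed pseudogene, had none. Rows for reads of no gene (17.0% of mean normalized counts) and ambiguous reads (0.606%) stayed out of every count. Members, gene lists, motifs and settings were chosen with earlier results of these data known. Genes are named where they were among the 8 lower or 8 higher members with the smallest adjusted p in a comparison, the 5 most abundant, next to the minimum of 100, or on a list of described roles. Zfp523 and genes named for a protein or sequence feature or a promoter motif were added after their values were seen. Settings tried were a stricter threshold, a minimum fold change, other minimum counts, common re-adjustment, a robust spread, removal of a span trend and removal of overlapping genes.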

Additional observations from a re-analysis of the deposited data

How the results depend on the processing

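No member was called in the direct comparison under any of the 8 other settings run for that count. At an adjusted p under 0.01, 2 members were called in Grn-/-;GRNtg and 7 in Grn+/- cortex against WT. With an absolute log2 fold change of at least 0.3 the counts were 5 and 11, and without members that overlap another gene 6 and 7. For these and the settings below, no share of other genes of the same range was counted. The member counts are thus no result about the set. After division of the Wald statistic by its robust spread (1.56 and 1.49), 0 members were called in either comparison, 0 lower and 0 higher, while 3 and 6 genes of all genes were. The cause was not tested. Re-adjustment over genes of all 3 tables, removal of the span trend, no minimum count and a minimum of 300 kept the counts between 9 and 13 in humanized and between 13 and 19 in Grn+/- cortex. The Grn+/- median was -0.036 at a minimum count of 300 and -0.030 without overlapping members. The direct median turned to 0.0067 at a minimum of 300, against -0.013. Of 143 values of named genes, 25 lost their call under the robust spread and 118 kept their status. Most of the 143 had no call to lose, so the 25 make up most calls among named genes. No paired analysis was possible because the tables hold no values per mouse, and for the same reason no mouse could be left out.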

Other observations

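Below the minimum count stood 72 further Zfp genes, of which 2 were called, in both comparisons against WT. That is 2.78% in each, beside 4.87% of all genes in the humanized and 6.8% in the Grn+/- comparison. Zfp369, a partner of the p75 neurotrophin receptor in mouse, had a mean normalized count of 45.9 and stood at 63.5% of WT in humanized and 55.1% in Grn+/- cortex, with adjusted p = 0.00041 and 5.9e-07 in the authors' deposited tables. Zfp568, a KRAB gene known for control of placental Igf2 in mouse, had a count of 93.3 and stood at 73.0% and 74.9% of WT, with adjusted p = 0.0108 and 0.0165 in the authors' deposited tables. Neither was called in humanized against Grn+/- cortex, with adjusted p = 0.713 and 0.971. Zfp488, an oligodendrocyte factor, had a count of 46.5 and log2 fold changes of 0.10 ± 0.138 and -0.12 ± 0.138. Zfp217 had a count of 91.5 and log2 fold changes of -0.15 ± 0.120 and -0.09 ± 0.120.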
